A study of Mus musculus with 6 samples.

Results

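The 10 core genes of the circadian clock were read out in monocytes from the spleen of vancomycin-treated and control mice. They are Arntl, Clock, Per1, Per2, Per3, Cry1, Cry2, Nr1d1, Nr1d2 and Dbp, taken by symbol as the textbook members of the loop. Each symbol stood on 1 of the 46072 gene identifiers listed, and all 10 were among the 16138 identifiers with enough counts to be tested. Female C57BL/6 mice, 8 to 10 weeks old, received by oral gavage either water (Con, 3 mice) or vancomycin (Van, 3 mice). Vancomycin is an antibiotic that acts mainly on Gram-positive bacteria and is poorly absorbed from the gut. It was given as 1 mg per gavage and 2 gavages per day, thus 2 mg per day, for 6 days. A rest period without gavage followed in both groups, given as 6 to 8 days in the labels and as 8 days for the sequenced groups in the text of the study. Monocytes were then enriched from the spleen by negative selection with a magnetic isolation kit. Per the paper, the selected cells lack T, B and NK cell markers, among others. Messenger RNA was sequenced with 1 library per mouse. No transgene or mutant allele was involved. The hour of the day at which the spleens were taken is not given in the sources used here.

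The clock is a feedback loop of transcription that runs in nearly every cell of the body, monocytes included. ARNTL (also called BMAL1) and CLOCK bind together to E-box sequences and switch on the Period and Cryptochrome genes, whose proteins return to the nucleus and block ARNTL and CLOCK. The same pair drives Nr1d1 and Nr1d2, which encode the REV-ERB repressors of Arntl, and Dbp, which encodes an activator acting at D-box sequences. In a tissue with a running clock, Arntl and Cry1 therefore peak at other hours than Nr1d1, Per2 and Dbp, and in monocytes and macrophages this loop is known to set a daily rhythm of chemokines and of inflammatory responses.

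These control letters can be read in the mouse genome. The windows of RefSeq (assembly GRCm38.p6) hold 250 bases before and 50 bases after a transcription start, and 13 such windows matched 9 of the 10 genes, with Per2 as the gene without one. The E-box was searched as CACGTG, its variant the E-prime box as CACGTT, the D-box as TTATGTAA or TTACGTAA, the half-site bound by ROR and REV-ERB receptors as AGGTCA, and the cyclic AMP response element (CRE) as TGACGTCA, each on both strands. The E-box and the E-prime box differ in their last letter and thus cannot be the same match. The first stretches are shown because they hold the E-box and D-box matches, each 5′ to 3′ on the strand of the gene, with the matches in capitals. They are Cry1 at chr10:85185065-85185304 (minus strand), Per1 at chr11:69098699-69098947 (plus strand) and Per3 at chr4:151044666-151044915 (minus strand). All lie outside annotated exons of the gene and end before the transcription start of their window. For Per1, this start is at chr11:69098949, whereas the gene is annotated from chr11:69095217. The Per1 stretch thus lies within the annotated gene.
Cry1: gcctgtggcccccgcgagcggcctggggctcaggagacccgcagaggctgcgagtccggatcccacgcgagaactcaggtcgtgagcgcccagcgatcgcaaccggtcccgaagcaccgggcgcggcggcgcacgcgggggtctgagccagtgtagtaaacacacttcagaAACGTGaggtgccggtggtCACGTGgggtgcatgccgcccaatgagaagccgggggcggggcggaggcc
Per1: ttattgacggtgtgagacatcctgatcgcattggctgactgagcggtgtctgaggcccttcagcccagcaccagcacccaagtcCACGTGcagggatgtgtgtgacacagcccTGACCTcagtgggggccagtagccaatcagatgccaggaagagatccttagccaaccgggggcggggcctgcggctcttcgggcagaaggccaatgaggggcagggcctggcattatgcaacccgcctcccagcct
Per3: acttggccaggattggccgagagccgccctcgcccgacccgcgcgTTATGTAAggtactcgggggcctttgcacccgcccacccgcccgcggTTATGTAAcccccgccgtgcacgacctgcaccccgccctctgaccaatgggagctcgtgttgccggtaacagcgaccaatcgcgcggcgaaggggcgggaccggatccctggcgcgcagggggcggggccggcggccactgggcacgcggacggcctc
In Cry1, the E-box lay at bases -60 to -55 from the start and an E-prime box, which reads AACGTG on this strand, at -79 to -74. In Per1, the E-box lay at -166 to -161, and the second capital run, TGACCT, is the receptor half-site read on the other strand. In Per3, the D-box letters occurred 2 times, at -205 to -198 and at -158 to -151. Across all 32817 windows of the reference, 7.15% held the E-box, 4.69% the E-prime box, 1.05% the D-box, 16.3% the half-site and 1.79% the CRE.

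Shorter sites are given for the remaining genes with a match in the second loop, its target Arntl, and Cry2. The sites are Cry2 at chr2:92434223-92434242, Nr1d1 at chr11:98775393-98775412 and Nr1d2 at chr14:18239171-18239190 (all minus strand), and Arntl at chr7:113207535-113207554 (plus strand, after the transcription start).
Cry2: tggtgggAACGTGagggggc
Nr1d1: agatctcAACGTGccggctg
Nr1d2: gaagaagAGGTCAggaccgc
Arntl: agaaagtAGGTCAgggacgg
The E-prime box was found in 3 of the 13 windows (Cry1, Cry2, Nr1d1) and the E-box in 2 (Per1, Cry1). The half-site was found in 4 windows (Arntl, Clock, Per1, Nr1d2), the D-box in 1 (Per3) and the CRE in none of them. A match of letters in these windows says nothing of binding in these cells, and the Dbp window held no match to any of the 5 motifs.

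The libraries held between 43.4M and 61.8M estimated counts, and the scaling factors (TMM, a correction for differences in library composition) lay between 0.990 and 1.01. Over all genes tested, the share called was 2% in edgeR and 7.76% in DESeq2, and 16.5% had an unadjusted p under 0.05. The monocyte markers Lyz2 and Csf1r were high in both groups, at a mean of 12137 and 3168 CPM in Con. Of the 10 monocyte markers, Ccr2 and Fcgr1 were called as lower in Van (DESeq2 also called Itgam as lower). Without overlap between the groups, 4 were lower and 1 was higher, where 22.5% of all genes tested did not overlap. The 4 included Cx3cr1 (log2 fold change -0.17, not called), and the higher one was Treml4 (0.19, not called). The summed level of the 10 markers was 21876 to 22509 CPM (counts scaled to library size) in Con compared to 20557 to 21760 CPM in Van. All 7 erythroid markers were detected at a low summed level, which was 42.1 to 84.1 CPM in Con against 137 to 296 CPM in Van, with 3 of them called as higher by edgeR and 5 by DESeq2. The summed red pulp macrophage markers were 2552 to 2975 CPM in Con against 3012 to 3833 CPM in Van, with none of the 6 called by edgeR (4 at an unadjusted p under 0.05, and 2 called by DESeq2). The summed NK cell markers were 26.0 to 39.4 CPM in Con against 14.7 to 21.9 CPM in Van. Nearly all of this was Klrk1, which was called as lower, at 38.2, 24.7 and 31.2 CPM in Con and at 20.8, 15.5 and 14.0 CPM in Van, whereas Ncr1 was at 0 in 4 of the 6 libraries. The summed dendritic cell markers were 55.4 to 61.4 CPM in Con and 55.5 to 58.2 CPM in Van, and the largest part of them was Flt3, which was higher without overlap (log2 fold change 0.25, not called). Clec9a was called as lower (-1.12), Xcr1 (-0.85) and Siglech (-0.88) were lower without overlap, and DESeq2 called these 3 of the 5 as lower. The summed B cell markers were 17.5 to 20.5 CPM in Con and 14.3 to 17.1 CPM in Van. The part of these cells in the values of the clock genes was not tested. In bulk RNA, fewer cells of a type and less RNA per cell cannot be told apart.

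The clock genes were compared first with each other, as a level per transcript length (FPKM, fragments scaled to transcript length and library size). Per1, a repressor of the loop that is also an early response gene, had by far the highest level, at 91.5 ± 5.40 FPKM in Con and 111 ± 13.5 in Van (SD, n = 3). Its mean level over the 6 mice was 9.45 times that of Nr1d2, the next gene, 159 times that of Per2 and 252 times that of Per3. Nr1d2 followed at 10.4 ± 0.613 FPKM in Con and 10.9 ± 2.79 in Van, and Clock at 6.54 ± 0.490 and 6.34 ± 0.0769. Arntl, the partner of Clock, stood at 4.74 ± 0.422 FPKM in Con and 5.63 ± 0.456 in Van. The lowest levels were those of Per2, at 0.577 ± 0.125 and 0.695 ± 0.222, and Per3, at 0.367 ± 0.0787 and 0.434 ± 0.105.

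Within pairs of related genes, 1 copy dominated in both groups. The mean level of Cry1 in FPKM was 2.48 times that of Cry2 in Con and 2.53 times in Van, and that of Nr1d2 was 5.50 times that of Nr1d1 in Con and 4.44 times in Van. In the order of levels in Con, the neighbours Arntl and Cry1, Cry1 and Dbp, and Nr1d1 and Cry2 overlapped between mice, and the remaining neighbours did not. In Van, Cry1 and Clock, Cry2 and Nr1d1, Nr1d1 and Dbp, and Per2 and Per3 overlapped. Dbp stood in sixth place in Con, at 3.23 ± 0.715 FPKM, and in eighth place in Van, at 1.88 ± 0.249 FPKM.

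**Figure D1:**
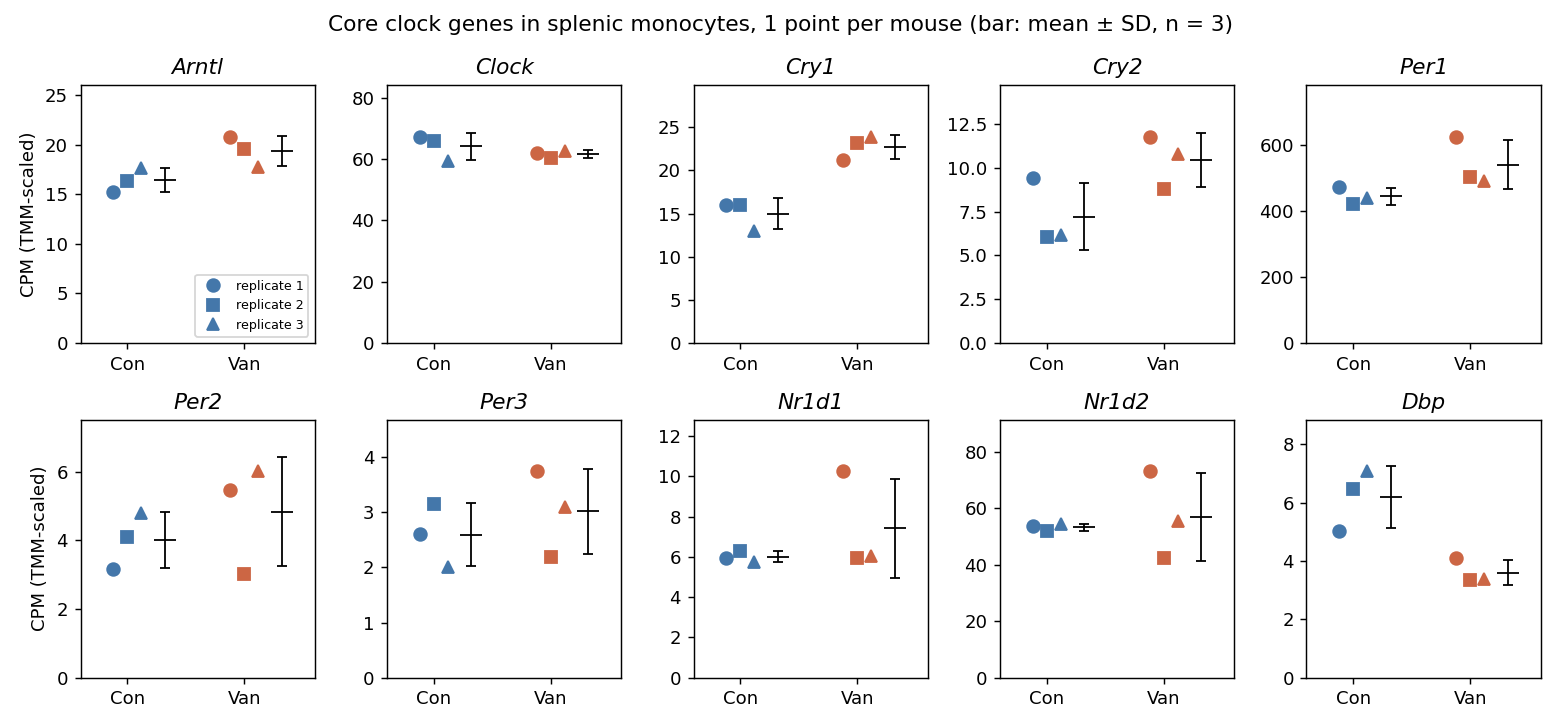
Level of each core clock gene in CPM (TMM-scaled, linear axes from 0) in the 3 Con and 3 Van mice, with 1 point per mouse, the marker shape giving the replicate number, and the mean ± SD beside the points. The Van points of Cry1, Per1 and Arntl lie above all Con points and those of Dbp below all Con points, and for Nr1d1 and Nr1d2 a single Van mouse stands above the rest.

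To determine whether vancomycin treatment was accompanied by a change in the clock genes, Van was compared to Con with edgeR's quasi-likelihood test, with p-values adjusted by the Benjamini-Hochberg method over all 16138 genes tested. At an adjusted p of at most 0.05, 1 of the 10 clock genes was called, Cry1, which was higher in Van. Of all genes tested, 2% were called, 1.08% as higher and 0.917% as lower. At an unadjusted p under 0.05 there were 5 clock genes, 4 higher (Arntl, Per1, Cry1, Cry2) and 1 lower (Dbp), where 16.5% of all genes passed, 8.37% as higher and 8.14% as lower. Per-mouse levels did not overlap between the groups for 4 of the 10 genes, 3 higher in Van and 1 lower, where 22.5% of all genes did not overlap, 11.5% as higher and 11% as lower. The log2 fold change was above 0 for 8 of the 10 genes, and their median was 0.26, compared to 8004 of the 16138 genes tested and a median of -0.0014. Without the first Van mouse, 6 of the 10 genes were above 0, with a median of 0.10. With all mice, the 2 genes below 0 were Clock and Dbp.

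The activators of the loop had small differences. Arntl was at 15.2, 16.4 and 17.7 CPM in the Con mice and at 20.9, 19.6 and 17.8 CPM in the Van mice. Each Van mouse lay above each Con mouse, although the lowest Van and the highest Con mouse were nearly level. The log2 fold change was 0.24 ± 0.09 (SE), with a 95% interval of 0.03 to 0.45 and an adjusted p of 0.250 (edgeR). Clock was at 67.3, 65.7 and 59.2 CPM in Con and at 61.9, 60.3 and 62.6 CPM in Van, and the groups overlapped. Its log2 fold change of -0.06 had a 95% interval of -0.21 to 0.09, the narrowest of the 10 genes (adjusted p = 0.744, edgeR).

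Of the Cryptochromes, which encode the strongest repressors of ARNTL and CLOCK, Cry1 rose in Van. It was at 16.0, 16.0 and 13.0 CPM in the Con mice and at 21.2, 23.1 and 23.9 CPM in the Van mice, so that the groups were clearly apart. The mean was 15.0 ± 1.79 CPM in the Con group and 22.8 ± 1.39 CPM in the Van group, and the fitted fold change was 1.51 (edgeR). In edgeR, this was a log2 fold change of 0.60 ± 0.10 (SE), with a 95% interval of 0.36 to 0.84 and an adjusted p of 0.0317 (edgeR). This call rested on all 6 libraries, since with any 1 left out the log2 fold change stayed between 0.51 and 0.65 but the adjusted p was 0.0593 to 0.128. With all libraries, the adjusted p was 0.0868 with a replicate block, and 0.101 and 0.102 with limma on the FPKM values. By an exact permutation test on the CPM values (two-sided), p was 0.10, the smallest that 3 against 3 mice allow.

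Cry2, the second Cryptochrome, was at 9.43, 6.04 and 6.17 CPM in Con and at 11.8, 8.79 and 10.8 CPM in Van. The groups overlapped, because the first Con mouse lay above the second Van mouse. The log2 fold change was 0.54 ± 0.19 (SE), close in size to that of Cry1, but the 95% interval was wide, at 0.10 to 0.98, and the adjusted p was 0.216 (edgeR). The gene was covered by 100 to 271 fragments per library. About 4.7% of its exon bases are shared with D930015M05Rik on the opposite strand, which was under 0.4 CPM in every library.

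Per1, the Period gene with the highest level, was at 472, 422 and 437 CPM in the Con mice and at 625, 501 and 492 CPM in the Van mice. All Van mice lay above all Con mice, and the first Van mouse stood well above the other two. Its log2 fold change was 0.28 ± 0.10 (SE), with a 95% interval of 0.06 to 0.50 and an adjusted p of 0.191 (edgeR). Without the first Van mouse it was 0.16. The gene was covered by 7097 to 14341 fragments per library, and its spread between mice was 10.1 times that from counting.

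Per2 and Per3, which encode the other Period proteins, had the lowest levels and wide intervals. Per2 was at 3.16, 4.09 and 4.79 CPM in Con and at 5.46, 3.02 and 6.01 CPM in Van, and the second Van mouse was the lowest of all 6. Per3 was at 2.60, 3.15 and 2.01 CPM in Con and at 3.74, 2.20 and 3.10 CPM in Van, again with the second Van mouse low among Van. The log2 fold changes were 0.27 for Per2, with a 95% interval of -0.34 to 0.88, and 0.22 for Per3, with an interval of -0.36 to 0.79. With each library left out, the value ran from 0.085 (without the third Van mouse) to 0.52 (without the second) for Per2, and from 0.032 (without the first Van mouse) to 0.40 (without the second) for Per3. Per3 was covered by 33 to 86 and Per2 by 58 to 127 fragments per library, and the spread between mice was 1.53 times that from counting for Per3 and 2.46 times for Per2. A change of the size of that of Cry1 lies within both intervals.

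Nr1d1 and Nr1d2, which encode the REV-ERB repressors of Arntl, were nearly level among the Con mice and spread widely among the Van mice. Nr1d1 was at 5.96, 6.30 and 5.76 CPM in Con and at 10.2, 5.96 and 6.03 CPM in Van. Nr1d2 was at 53.7, 51.8 and 54.3 CPM in Con and at 73.0, 42.2 and 55.3 CPM in Van. For both genes, the first Van mouse was the highest and the second Van mouse the lowest of the Van group. On the log2 scale, the SD of Nr1d1 was 0.06 among Con and 0.42 among Van mice, and that of Nr1d2 was 0.03 and 0.39. The within-group SD of Nr1d2 was larger than that of 98.2% of the 500 tested genes closest to it in level, and that of Nr1d1 was larger than 87.2%. Wide spreads were not particular to this pair, with shares of 91.6% for Cry2, 90.8% for Per2 and 87.2% for Per1, and Per2 had the largest SD among the Van mice (0.48).

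The log2 fold change was 0.30 for Nr1d1, with a 95% interval of -0.18 to 0.79, and 0.10 for Nr1d2, with an interval of -0.28 to 0.47 (adjusted p = 0.540 and 0.844, edgeR). Without the first Van mouse both fell below 0, to -0.0026 and -0.13. Nr1d1 shares 8.5% of its exon bases with Thra on the opposite strand, which was at 14.5 ± 0.509 CPM in Con and at 15.9 ± 1.87 CPM in Van. For Nr1d2, the gene AC170187.1 holds a copy of 1385 bases at 96.1% identity. AC170187.1 was not among the gene symbols listed, and how its reads were assigned is not stated.

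Dbp, the output gene that is driven directly by ARNTL and CLOCK, was the gene with the largest change in size. It was at 5.03, 6.47 and 7.07 CPM in the Con mice and at 4.10, 3.33 and 3.37 CPM in the Van mice. Each Van mouse lay below each Con mouse, and the mean was 6.19 ± 1.05 CPM in Con and 3.60 ± 0.433 CPM in Van. This gave a log2 fold change of -0.78 ± 0.17 (SE), with a 95% interval of -1.17 to -0.39, but the adjusted p of 0.0626 (edgeR) did not pass the threshold. DESeq2 gave an adjusted p of 0.0038 for it and called 2 of the 10 clock genes, Cry1 and Dbp, beside 7.76% of the genes to which it gave an adjusted p. With each library left out, the log2 fold change lay between -0.91 and -0.67.

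Dbp was covered by 64 to 146 fragments per library, and its spread between mice was 1.31 times that from counting alone. Dbp also shares 18% of its exon bases with Sphk2 on the opposite strand, and the strand setting of the counting is not stated. Sphk2 was at 52.6 ± 1.60 CPM in Con and at 53.2 ± 2.19 CPM in Van, with a log2 fold change of 0.02 (adjusted p = 0.938, edgeR).

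**Figure D2:**
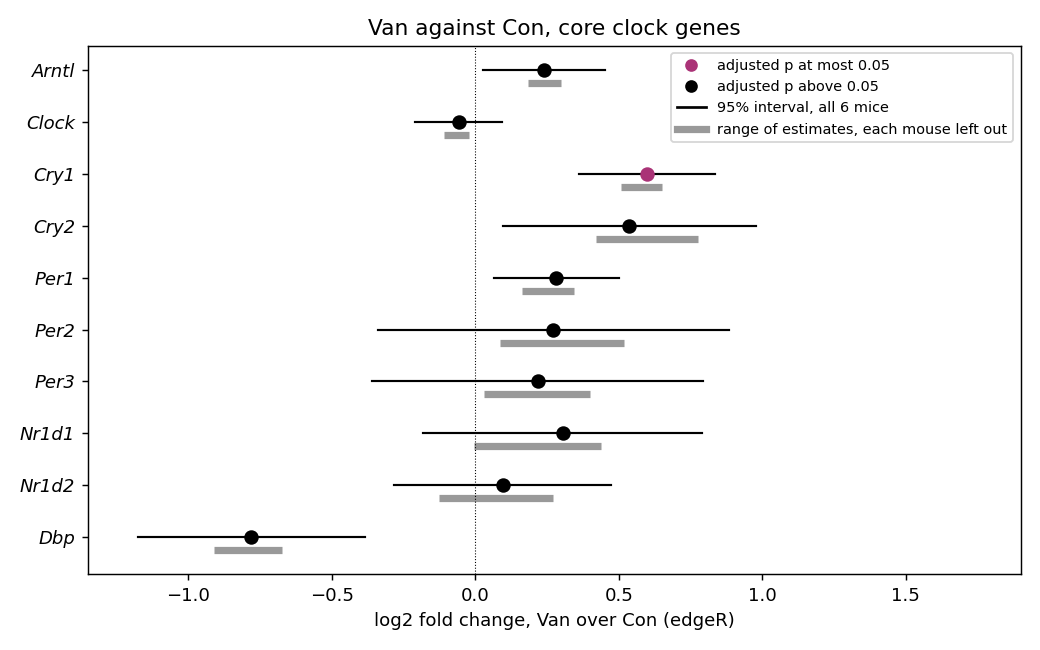
Log2 fold change of Van over Con for each core clock gene (edgeR), with the 95% interval as a thin line and the range of the 6 estimates with each mouse left out as a grey bar. Only Cry1 passes an adjusted p of 0.05 with all 6 mice; the intervals of Arntl, Per1, Cry2 and Dbp also lie off 0, and the grey bars of Nr1d1 and Nr1d2 reach below 0.

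Because the loop makes some genes peak when others are low, members of opposite phase were also compared as a ratio within each library, which does not depend on the scaling between libraries. The log2 count ratio of Arntl to Dbp was 1.60, 1.34 and 1.32 in the Con mice and 2.35, 2.55 and 2.40 in the Van mice. The groups were far apart relative to their spread, with a mean of 1.42 ± 0.16 in Con and 2.43 ± 0.11 in Van (SD, n = 3). The difference of 1.01 corresponds to a ratio 2.02 times as high in Van. With each library left out it stayed between 0.953 and 1.10.

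The ratio of Cry1 to Dbp, chosen after its values were seen, was also higher in each Van mouse than in each Con mouse. Its log2 value was 1.67, 1.31 and 0.87 in Con and 2.37, 2.79 and 2.83 in Van, a difference of 1.38. Both ratios share Dbp and both were formed from genes whose groups did not overlap, so that they are descriptions of those genes and not further evidence.

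The other antiphase pairs did not separate the groups. For Arntl to Nr1d1, the log2 ratio was 1.35, 1.38 and 1.62 in Con and 1.02, 1.72 and 1.56 in Van, and the difference was -0.02, with 0.07 without the third Con mouse and 0.19 without the first Van mouse. For Arntl to Per1, it was -4.95, -4.69 and -4.63 in Con and -4.91, -4.68 and -4.79 in Van, a difference of -0.04 that also turned above 0 without either of these mice (0.028 and 0.022). For Cry1 to Per2, it was 2.34, 1.97 and 1.43 in Con and 1.96, 2.94 and 1.99 in Van, a difference of 0.38 that was smaller than the SD of either group (0.46 and 0.55) and that fell to 0.06 without the second Van mouse. Arntl, Nr1d1 and Per1 were each higher on average in Van, which left their ratios near those of Con.

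**Figure D3:**
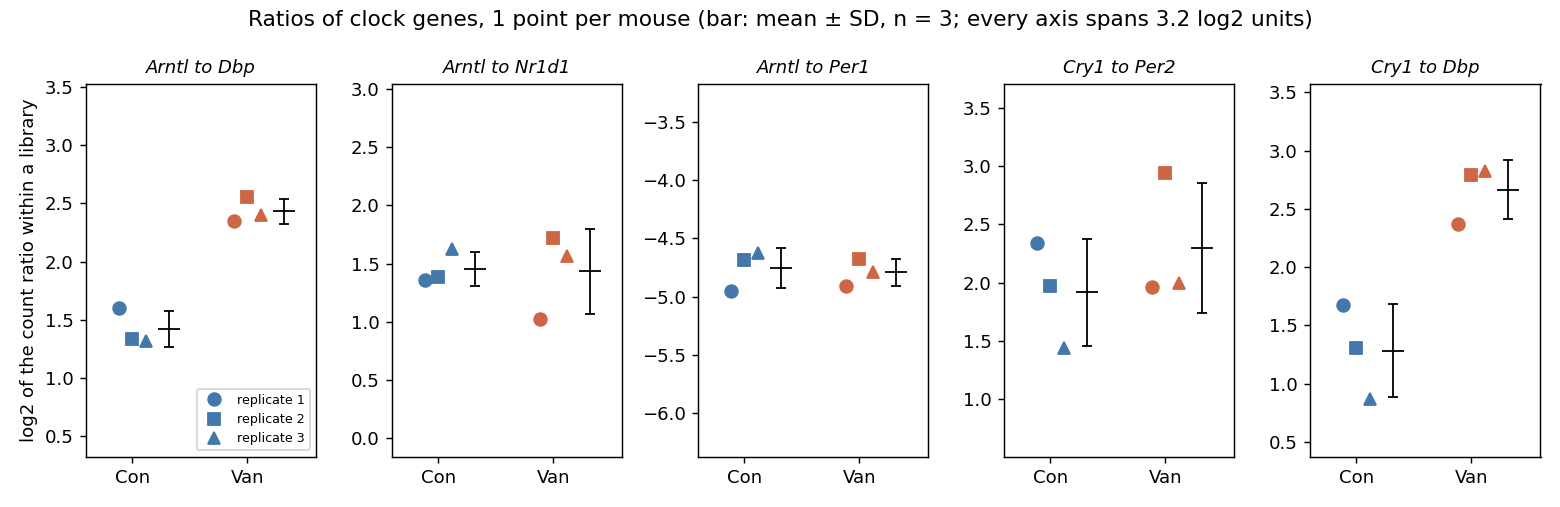
Log2 ratio of the counts of 2 clock genes within each library, with 1 point per mouse, marker shapes for replicate numbers and mean ± SD beside the points, on axes of equal span. The Van mice lie above the Con mice for Arntl to Dbp and Cry1 to Dbp, and the groups overlap for Arntl to Nr1d1, Arntl to Per1 and Cry1 to Per2.

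Single mice stood out across several clock genes. The first Van mouse had the highest level of all 6 for 6 of the 10 genes (Arntl, Per1, Per3, Cry2, Nr1d1 and Nr1d2), whereas this library was the highest for 16.4% of all genes tested. Within the Van group, the second mouse was the lowest for 7 of the 10 genes, compared to 30.4% of all genes tested. The exceptions were Arntl and Per1, which were lowest in the third Van mouse, and Cry1, which was lowest in the first. These counts were made after the values were seen and were given no test.

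The genes whose pattern over the 6 libraries was most like that of Dbp were Cdc25c, a phosphatase of mitotic entry, 9430038I01Rik and Tbc1d23, with Pearson's r of log2 CPM of 0.996, 0.995 and 0.995. The most like Arntl were Neu1, a lysosomal sialidase, Map4k2, a kinase, and Zfyve19, with r of 0.992, 0.987 and 0.985. These r are given as a description. At a lower bound of 0.95, 126 of the 15878 genes compared (0.794%) reached that r with Dbp and 51 (0.321%) with Arntl. Cdc25c was at 0.588 CPM in Con and at 0.0327 CPM in Van, and is thus near the lower limit of detection.

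Beyond the core loop, the partners of the clock were examined. Of all genes tested, 16.5% had an unadjusted p under 0.05 and 22.5% did not overlap between the groups, which is the background for the counts of these lists. For calls, the background is 2% in edgeR and 7.76% in DESeq2. None of the 10 tested genes of the list of partners and the second loop was called by edgeR, nor any of the 6 to which DESeq2 gave an adjusted p, 1 had an unadjusted p under 0.05, and none was without overlap between the groups. Their median log2 fold change was 0.05. Among them, Bhlhe40, a repressor that competes for E-boxes, was at 440 ± 55.7 CPM in Con and at 395 ± 148 CPM in Van. Nfil3, the repressor that opposes DBP at D-boxes, was at 191 ± 26.7 CPM in Con and at 211 ± 5.28 CPM in Van. Tef, a relative of Dbp, was at 59.8 ± 3.04 and 61.4 ± 13.5 CPM. Rora, an activator of Arntl, was at 11.3 ± 1.65 and 13.2 ± 1.83 CPM, whereas Rorb had no count in any library. Npas2, Arntl2 and Hlf, close relatives of Clock, Arntl and Dbp, averaged below 1 CPM in both groups.

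The list of kinases, ubiquitin ligases and other proteins that act on clock proteins held differences in both directions, with a median log2 fold change of -0.03. None of the 14 tested was called by edgeR, 5 had an unadjusted p under 0.05 (1 higher, 4 lower), and DESeq2 called Prkaa1 as higher and Timeless and Tipin as lower. Prkaa1, a subunit of the AMP-activated kinase that acts on CRY1, was at 51.7, 58.1 and 51.3 CPM in Con and at 64.3, 61.4 and 64.0 CPM in Van, with a log2 fold change of 0.24 (adjusted p = 0.130, edgeR). The casein kinases Csnk1d, Csnk1e and Csnk2a1 also had no overlap between the groups, but their log2 fold changes were 0.06, 0.11 and 0.08. In all, 4 of the 14 were higher and 5 lower without overlap. Fbxw11, a ligase subunit for PER proteins, and Usp7, a deubiquitinase, were lower without overlap, at -0.19 and -0.11. Prkaa2, the other catalytic subunit of the AMP-activated kinase, had a log2 fold change of -2.57 (adjusted p = 0.216, edgeR) without overlap, but averaged 0.362 CPM in Con and 0.0563 CPM in Van.

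Timeless and Tipin, which encode a protein pair of the replication fork, had log2 fold changes of -0.52 each. Timeless was at 8.35, 8.76 and 8.95 CPM in Con and at 4.71, 6.98 and 6.44 CPM in Van (adjusted p = 0.140, edgeR). Tipin was at 6.79, 7.20 and 8.67 CPM in Con and at 5.39, 5.67 and 4.72 CPM in Van (adjusted p = 0.112, edgeR). Both were lower in each Van mouse than in each Con mouse.

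Of the 13 corepressors and chromatin partners, none was called by edgeR, 3 had an unadjusted p under 0.05 (2 higher, 1 lower), and DESeq2 called Sfpq. Their median log2 fold change was 0.11, and 5 were higher and 1 lower without overlap, thus 6 of 13, where 22.5% of all genes tested did not overlap. Sfpq, an RNA-binding partner of the PER complex, was at 260 ± 17.5 CPM in Con and at 307 ± 14.1 CPM in Van, with a log2 fold change of 0.24 (adjusted p = 0.114, edgeR). Nono, Wdr5, Crebbp and Ep300 had log2 fold changes of 0.05, 0.22, 0.15 and 0.11, and Kdm5a one of -0.21. Hdac3 and Ncor1, through which the REV-ERB proteins repress, had log2 fold changes of 0.0026 and 0.02.

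Among 12 genes known as outputs of the clock, Klf9 was the one called, by edgeR and by DESeq2. Klf9, which encodes a transcription factor under both clock and glucocorticoid control, was at 49.8, 53.1 and 55.9 CPM in the Con mice and at 96.6, 84.6 and 99.9 CPM in the Van mice. Its log2 fold change was 0.82 ± 0.08 (SE), with an adjusted p of 0.0044 (edgeR). Noct, a rhythmic phosphatase known as nocturnin, was at 34.9, 33.2 and 36.4 CPM in Con and at 57.2, 43.3 and 42.8 CPM in Van, with a log2 fold change of 0.46 (adjusted p = 0.0868, edgeR). Wee1, an inhibitory kinase of mitotic entry and a classical E-box target, was at 2.22, 2.00 and 1.76 CPM in Con and at 2.50, 4.06 and 3.30 CPM in Van (log2 fold change 0.72, adjusted p = 0.159, edgeR). Por and Ppard were without overlap at log2 fold changes of 0.17 and -0.16. The median over the list was 0.11.

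**Figure D4:**
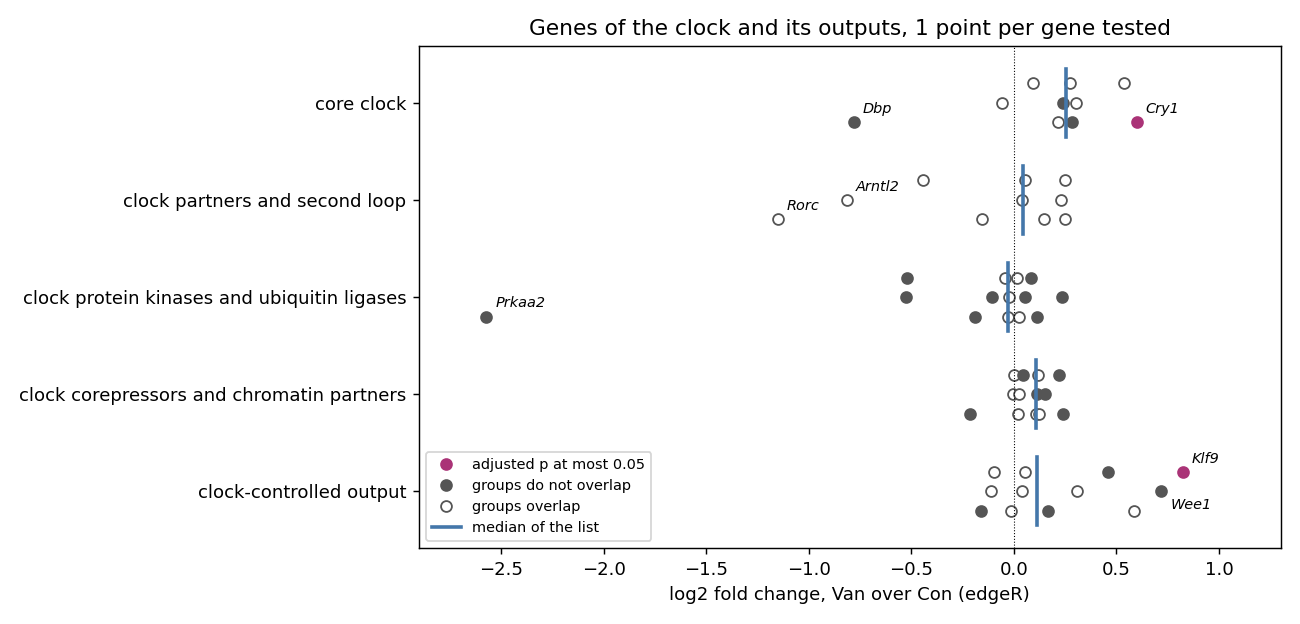
Log2 fold change of Van over Con (edgeR) for the tested genes of the core clock list and 4 further clock lists, with 1 point per gene, filled where the Con and Van mice do not overlap and coloured where the adjusted p is at most 0.05, and a vertical bar at the median of each list. Cry1 and Klf9 are the 2 coloured points, and the medians lie between -0.03 and 0.26.

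Per1, Klf9 and the clock as a whole are also known to respond to glucocorticoid hormones and to cyclic AMP, and genes of these responses were read beside them. Fkbp5, a chaperone induced by the glucocorticoid receptor, was at 16.2, 24.0 and 16.0 CPM in the Con mice and at 107, 110 and 185 CPM in the Van mice, a log2 fold change of 2.84 ± 0.25 (SE, adjusted p = 0.0028, edgeR). It was the 1 gene called by edgeR of 7 in the glucocorticoid list (2% of all genes tested were called), and DESeq2 also called Tsc22d3 and Zbtb16 as higher. Zbtb16, a transcription factor induced by glucocorticoids, was at 36.7, 43.6 and 44.5 CPM in Con and at 81.1, 58.7 and 52.7 CPM in Van (log2 fold change 0.63, adjusted p = 0.0826, edgeR). Tsc22d3, which encodes the glucocorticoid-induced leucine zipper, was at 326 ± 34.8 CPM in Con and at 413 ± 21.5 CPM in Van, and did not pass the threshold in edgeR (log2 fold change 0.34, adjusted p = 0.0771, edgeR). Nr3c1, the receptor itself, was at 207 ± 6.52 CPM in Con and at 185 ± 8.17 CPM in Van (log2 fold change -0.16, adjusted p = 0.211, edgeR). Dusp1 and Errfi1, of the same list, had log2 fold changes of -0.01 and 0.0014.

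Of the 11 immediate early genes, Crem, a factor of the cyclic AMP response, was the one called by edgeR, at 8.41 ± 1.09 CPM in Con and at 14.0 ± 1.10 CPM in Van (log2 fold change 0.74, adjusted p = 0.0288, edgeR). In all, 6 of the 11 had an unadjusted p under 0.05, each higher in Van (Fosb, Jun, Egr2, Ier2, Ier3 and Crem), where 16.5% of all genes passed in either direction. The list had 7 genes above 0 and 4 below, and the latter, Fos, Egr1, Junb and Atf3, had log2 fold changes of -0.05, -0.18, -0.08 and -0.06. DESeq2 also called Ier2 as higher (log2 fold change 0.23, adjusted p = 0.0727 in edgeR). Of the 7 heat shock genes, Hsph1, Hsp90aa1 and Hspa8 were called by edgeR as higher, with log2 fold changes of 1.76, 0.63 and 0.60 (2% of all genes tested were called). Hspa1a and Hspa1b overlapped between the groups, with log2 fold changes of 0.10 and 0.20. The median of the list was 0.60, compared to 0.20 for the glucocorticoid and 0.17 for the immediate early list. DESeq2 also called Dnajb1 as higher (log2 fold change 0.32, adjusted p = 0.109 in edgeR). The part of these responses in the values of Per1, Cry1 or Klf9 was not tested.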

How the data were processed

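The data are mRNA libraries of monocytes from the spleen, 1 per mouse, for 3 Con and 3 Van mice. The data statement of the paper names another deposit, and the libraries were matched to its groups by treatment, so that the rest of 8 days and other details from its text rest on this match. Per the labels, the authors aligned stranded paired-end reads to GRCm38 with HISAT2 2.2.1, and deposited FPKM values from StringTie 2.1.3 and Ballgown and, from these, estimated counts through tximport 1.26.1. The annotation release, the handling of reads with several alignments and the strand setting are not given in the sources used here. An estimated count was taken to stand for about 0.375 fragments, which gives 16.3M to 23.2M fragments per library. All fragment numbers and spreads from counting given here are estimates by this factor. The depth stated in the paper is lower, and at a lower depth the spread from counting would be larger.

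The estimated counts were rounded and tested in R 4.3.3 with edgeR 4.0.16 (TMM, expression filter at a minimum count of 10, quasi-likelihood test, with no covariate beside the group). Genes were called at a Benjamini-Hochberg adjusted p of at most 0.05. CPM values were TMM-scaled, and SEs came from the log fold change and its F statistic. P-values weigh the group difference against the spread among these mice. Per the paper, mice were housed several to a cage, and the part of the cage in these values was not tested. No pair of libraries agreed within sampling noise. Alternatives were DESeq2 1.42.0, limma 3.58.1 on log2(FPKM + 1) or log2(FPKM + 0.1) after quantile normalization, RLE factors, library size alone, other filters, the replicate number as a block, the fragment scale, a single identifier per symbol, and each library left out. Exon overlaps were taken from GENCODE on GRCm38 and near-identical copies from BLAST 2.17.0 (at least 200 bases at 95% identity). The fits were tested on simulated data. The genes, the lists and the rule for naming were chosen with earlier results of these data known: all clock genes, genes of the other clock lists that were called or without overlap, called genes of the response lists with Nr3c1 and Tsc22d3, and the 3 genes most like Dbp and Arntl. Further genes of the partner and corepressor lists were named for their role, and Zbtb16, Ier2 and Dnajb1 for their calls in DESeq2. Some lower or level genes of the response lists were named after their values were seen.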

Additional observations from a re-analysis of the deposited data

How the results depend on the processing

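Of the 160 values of the 10 genes under the 16 alternatives, 148 kept their direction and side of the threshold. Cry1 was called under 7 of the 10 alternatives with all libraries. Its adjusted p was 0.0868 with a replicate block and 0.101 and 0.102 with limma on log2(FPKM + 0.1) and log2(FPKM + 1). DESeq2 called 1033 genes and 2 clock genes (Cry1 and Dbp). The block called 110 genes and 0 clock genes, of which 4 had an unadjusted p under 0.05. The limma fits called 19 (pseudocount 1) and 20 (pseudocount 0.1) genes and 0 clock genes, again with 4 at an unadjusted p under 0.05, and 84.2% and 80% of their calls were higher in Van, compared to 54% in edgeR with TMM. With 1 library left out, edgeR called 21 to 136 genes, compared to 322 with all, and 0 clock genes in each case (2 to 6 at an unadjusted p under 0.05). The fewest genes were called without the second Van mouse (21) and the third Con mouse (22), where 85.7% and 90.9% of calls were higher. Reversed signs were found without the first Van mouse for Nr1d1 (-0.0026, range -0.0026 to 0.44) and Nr1d2 (-0.13, range -0.13 to 0.27), and then 6 instead of 8 clock genes had a log2 fold change above 0, with a median of 0.10. Per1 was then at 0.16 and Per3 at 0.032, and Per2 was at 0.085 without the third Van mouse.

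The difference in the Arntl to Dbp ratio was 0.75 from log2(FPKM + 1) values, and 0.953 to 1.10 with each library left out. That of Arntl to Nr1d1 ranged from -0.16 to 0.19 and changed sign without the third Con (0.07) or the first Van mouse (0.19). That of Arntl to Per1 ranged from -0.13 to 0.028 and changed sign without the same mice (0.028 and 0.022). That of Cry1 to Per2 ranged from 0.06 to 0.59. The causes were not tested.

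Deviations of same-numbered libraries correlated across genes at 0.07, -0.03 and -0.15, and those of differently numbered libraries at -0.11 to 0.14. Whether the replicate numbers pair mice cannot be told from so few values. The SD from counting alone was largest for Per3 (0.20 on the log2 scale), Per2 (0.16) and Dbp (0.15), and the spread between mice was 1.53, 2.46 and 1.31 times as large.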
